A study of Mus musculus with 21 samples.

Results

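The 10 genes described here are monocyte genes, followed in sorted blood-forming cells of a mouse model of juvenile myelomonocytic leukemia (JMML), a childhood leukemia in which monocytes and granulocytes accumulate. Ly6c2, Ccr2, Fn1 and F13a1 mark classical monocytes. Cx3cr1, Nr4a1, Ace and Fcgr4 mark patrolling monocytes, and Lyz2 and Ctss are shared by both kinds and by macrophages. The genes were found by symbol through their Ensembl identifiers, each in 1 row, which made them 10 of the 45706 genes counted in every library. All 10 passed the filter on low counts, which left 19555 genes for testing.

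RNA was sequenced in 21 libraries from LSK cells (lineage-negative, Sca1 and cKit positive stem and progenitor cells) of the bone marrow (BM) and from CD11b+ myeloid cells of BM and spleen. In every cell type, 2 libraries came from mice labelled MxCre, 2 from mice labelled Ptpn11D61Y/+ and 3 from MxCre;Ptpn11D61Y/+ mice in stage 3 of the disease (S3, terminally ill). All mice received poly I:C, so both control genotypes had the injections too. MxCre mice carried the Cre recombinase under the interferon-inducible Mx1 promoter and no mutant allele. Ptpn11D61Y/+ mice carried the mutant allele of Ptpn11, the gene of the phosphatase SHP2, silenced by a Neo-Stop cassette, which left 1 functional allele. In MxCre;Ptpn11D61Y/+ mice poly I:C induced the Cre, the cassette was removed and the mutant protein was made in cells that respond to interferon. LSK cells were sorted after lineage depletion, and CD11b+ cells were enriched on magnetic columns, a step that keeps neutrophils, macrophages and other CD11b+ cells beside monocytes. The strain and age of the mice are not given in the sources used here. The methods for RNA of CD11b+ cells speak of more mice per genotype than the 2 control libraries analysed here, and no label ties a control library to 1 mouse, so p-values measure the spread between libraries.

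Classical monocytes carry Ly6C on their surface, leave the BM through the chemokine receptor Ccr2 and enter inflamed tissue. Patrolling monocytes carry little Ly6C, crawl along the inside of vessels with the help of the fractalkine receptor Cx3cr1 and depend on the nuclear receptor Nr4a1. Classical monocytes can turn into patrolling monocytes, and the spleen holds a reserve of both.

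The total count ran from 34992610 to 104509425 per library with a median of 69421661, and between 14641 and 24220 genes were detected. The libraries with the fewest detected genes were spleen CD11b+ MxCre 1, BM CD11b+ S3 815 and BM CD11b+ MxCre 1. Kit, which encodes the cKit receptor of the LSK sort, lay between 8.17 and 9.06 log2 CPM (the log2 count of a gene relative to the scaled library size) in the LSK libraries and at most at 6.19 in the CD11b+ libraries. Itgam, which encodes CD11b, lay between 7.24 and 10.70 in the CD11b+ libraries and between 4.98 and 6.84 in the LSK libraries. Ly6a, which encodes Sca1, did not separate the fractions, with 5.41 to 6.25 in the LSK libraries and 1.68 to 8.29 in the CD11b+ libraries.

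Some libraries went against their labels as samples of 1 animal. Xist is transcribed in females, and Ddx3y lies on the Y chromosome. BM CD11b+ MxCre 2 held 2834 counts of Xist and 353 of Ddx3y, BM CD11b+ S3 540 held 2780 and 173, and spleen CD11b+ S3 540 held 712 and 1275. These were the 3 libraries with at least 100 counts of both Xist and the Y gene Eif2s3y, and in each of the others either Xist had 17 counts or fewer or both Y genes had none. LSK S3 540, by contrast, had 1 count of Xist and 5083 of Ddx3y. Spleen CD11b+ Ptpn11D61Y/+ 1 had 4753 counts of Xist and none of Ddx3y, while the LSK and BM libraries with the same number had 7357 and 1113 counts of Ddx3y and spleen Ptpn11D61Y/+ 2 had none of Xist and 1999 of Ddx3y, so the 2 spleen libraries came from different animals. Calls of the genes below that were lost or gained without the 3 libraries are given with both values.

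All positions are on GRCm38. Ly6c2, which encodes the Ly6C antigen, lies on chromosome 15 (chr15:75108158-75111970) and Ccr2 on chromosome 9 (chr9:124101950-124113557). Fn1, the gene of fibronectin, spans chr1:71585520-71653200, and F13a1, the gene of the coagulation factor XIII A chain, spans chr13:36867178-37050244. Cx3cr1 spans chr9:119901616-120069879 and overlaps 9 annotated genes, among them Csrnp1, Gorasp1 and Xirp1 on its own strand, so its count is uncertain. Nr4a1 lies at chr15:101254269-101274795, Ace, the gene of angiotensin-converting enzyme, at chr11:105967945-105989964 and Fcgr4, an activating receptor for IgG, at chr1:171018920-171029761. Lyz2, which encodes lysozyme M, lies at chr10:117277331-117282321 and Ctss, which encodes the lysosomal protease cathepsin S, at chr3:95526786-95556403. Of all 100-base windows of the longest transcript, 3.603% in Ly6c2 were identical to Ly6c1 and 1.972% in Lyz2 to Lyz1, so few reads of these genes could be split between the copies.

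RefSeq promoter windows (GRCm38.p6, 250 bases before to 50 after the start) were at hand for 9 of the genes, 12 windows in all. They were searched on both strands for GAGGAAGT, the core letters bound by PU.1, the factor (gene Spi1) that monocytes and macrophages need. The letters occurred in windows of 4 of the genes, Fcgr4, Ctss, Ly6c2 and F13a1, and in 3.202% of all 32851 promoter windows of the same length. The KLF letters CCCCACCC occurred in F13a1 and in 9.988% of all windows. The palindromes TGACGTCA (cAMP response element, 1.79% of all windows) and TTGCGCAA (C/EBP, 0.183%) occurred in none of the 12. Windows of 3 genes, 150 bases before to 30 after the start, are shown. All 3 hold the PU.1 letters, and they belong to a patrolling, a shared and a classical gene. They are Fcgr4 (chr1:171018776-171018955, plus strand), Ctss (chr3:95526636-95526815, plus strand) and Ly6c2 (chr15:75111908-75112087, minus strand), read 5′ to 3′ on the strand of the gene. Capitals mark the PU.1 letters or their reverse complement.
Fcgr4: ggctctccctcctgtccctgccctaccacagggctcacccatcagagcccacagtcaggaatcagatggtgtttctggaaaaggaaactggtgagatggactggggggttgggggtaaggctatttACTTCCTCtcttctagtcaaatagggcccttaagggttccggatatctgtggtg
Ctss: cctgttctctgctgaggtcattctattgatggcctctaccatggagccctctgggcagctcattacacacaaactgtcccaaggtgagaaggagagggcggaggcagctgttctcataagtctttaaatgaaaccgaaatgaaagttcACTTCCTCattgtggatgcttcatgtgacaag
Ly6c2: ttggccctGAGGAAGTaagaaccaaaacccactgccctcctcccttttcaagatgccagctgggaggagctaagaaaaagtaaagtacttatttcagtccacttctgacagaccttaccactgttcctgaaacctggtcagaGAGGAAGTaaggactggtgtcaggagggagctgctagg
Counted from the start, the match began at position -24 in Fcgr4, at -2 in Ctss, and at -142 and -8 from the downstream start in Ly6c2. A match is a description of the letters and not a measured binding site.

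**Figure D1:**
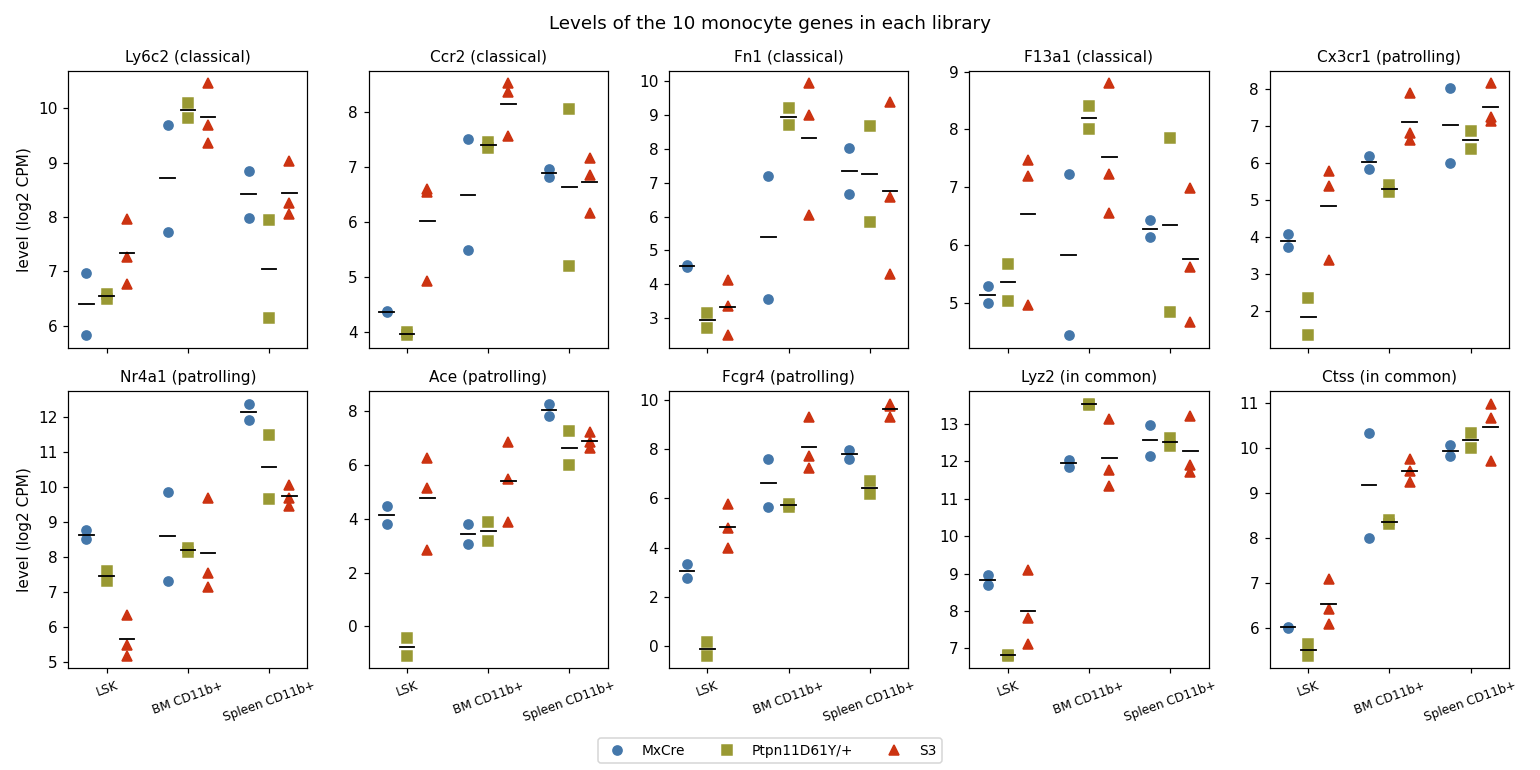
Level of each of the 10 genes (y axis, log2 CPM) in each library of the 3 cell types (x axis), by genotype, with the group mean as a bar. The y axes differ between genes. Fcgr4 was highest in the 3 spleen libraries of S3 mice (9.32 to 9.85), and Nr4a1 in the 2 spleen libraries of MxCre mice (11.91 and 12.39).

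Compared per kilobase of exon, Lyz2 was the most abundant of the 10 genes in all 9 groups, and Ctss came second in some of them. In CD11b+ spleen cells of S3 mice the mean was 4218 CPM per kb for Lyz2, 1108 for Ctss and 643 for Fcgr4. Nr4a1 followed with 247 and Ly6c2 with 133, and Cx3cr1, Ace, Fn1, Ccr2 and F13a1 lay between 42.5 and 9.90 CPM per kb. In MxCre spleen Nr4a1 was second with 1315 CPM per kb, above Ctss with 730 and Fcgr4 with 178. In LSK cells of S3 mice the order was Lyz2 with 230 CPM per kb, Ctss with 71.5, Ly6c2 with 62.4 and Fcgr4 with 26.1. In LSK cells of MxCre and Ptpn11D61Y/+ Nr4a1 (114 and 50.0 CPM per kb) lay above Ctss (48.0 and 34.0), and in BM of Ptpn11D61Y/+ Ly6c2 (367) lay above Ctss (244).

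Most of the genes were higher in CD11b+ cells than in LSK cells of the BM. Over the 7 LSK libraries Ctss ran from 5.39 to 7.09 log2 CPM with a median of 6.04, and over the 14 CD11b+ libraries from 8.01 to 10.99 with a median of 9.80. The ranges did not touch. In S3 mice 8 of the 10 genes rose from LSK to CD11b+ cells of the BM at an adjusted p under 0.05 (edgeR quasi-likelihood test, Benjamini-Hochberg), where 27.1% of all genes passed and 14.4% rose. The rises were 4.05 ± 0.62 (SE) for Lyz2 on the log2 scale, 3.35 ± 0.60 for Fcgr4, 2.92 ± 0.49 for Ctss, 2.5 ± 0.58 for Ly6c2, 2.07 ± 0.58 for Cx3cr1 and 2.01 ± 0.62 for Ccr2. Fn1 (5.53 ± 1.33) and Nr4a1 (2.83 ± 0.71) passed too, but with the animal as a block their values were 3.44 (edgeR adjusted p = 0.0647) and 2.03 (edgeR adjusted p = 0.0639). Only animals 540 and 815 gave both libraries, and LSK S3 540 does not match BM S3 540 in its Xist and Ddx3y counts. F13a1 (0.96 ± 0.84) and Ace (0.54 ± 0.69) did not pass, and their groups overlapped. In MxCre mice 6 of the 10 rose, where 36.9% of all genes passed and 16.6% rose, namely Fcgr4 (3.85 ± 0.75), Ctss (3.58 ± 0.62), Lyz2 (3.11 ± 0.72), Ly6c2 (2.52 ± 0.71), Ccr2 (2.46 ± 0.77) and Cx3cr1 (2.13 ± 0.72). With library sizes alone as scaling Ly6c2, Ccr2 and Cx3cr1 missed the threshold in MxCre mice (1.47, 1.42 and 1.06), and so did Ccr2 (1.31) and Cx3cr1 (1.38) in S3 mice. Without the 3 libraries with reads of Xist and of Y genes, Ly6c2 (1.19), Ccr2 (1.09) and Cx3cr1 (2.27) missed it in MxCre mice, and Ccr2 (1.90) in S3 mice. Leaving out 1 library ended the S3 call of Ccr2 for LSK 540, 815 or 768 and for BM 540 or 815 (1.64 to 2.25), and that of Cx3cr1 for LSK 540 (1.64) or BM 815 (1.57). In MxCre mice it ended the calls of Cx3cr1 for LSK 1, LSK 2 or BM 1, of Ccr2 for LSK 1, LSK 2 or BM 2, of Ly6c2 for LSK 2 or BM 2 and of Lyz2 for LSK 2 (2.96). Those of Fcgr4 and Ctss held without any 1 library in both genotypes. With only the 2 groups in the fit, however, 2 of the 10 passed in MxCre mice in place of 6. In that fit 4727 of all genes passed and 1929 rose. The calls of Fcgr4 (3.87, edgeR adjusted p = 0.0551), Ctss (3.6, 0.0754), Ccr2 (2.46, 0.102) and Ly6c2 (2.51, 0.126) were lost. In S3 mice 7 passed, where 3796 of all genes passed and 2250 rose, and the call of Cx3cr1 (2.22, edgeR adjusted p = 0.0544) was lost.

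Fcgr4 stood higher in S3 mice than in the controls without overlap in 5 of 6 comparisons, and Cx3cr1 and Ccr2 in 4 each. Of all genes 29.1% and 32% did so in LSK cells (against MxCre and Ptpn11D61Y/+), 5.74% and 7.97% in the BM and 20.2% and 9.5% in the spleen. In LSK cells it measured 3.33 and 2.78 log2 CPM in MxCre, 0.17 and -0.39 in Ptpn11D61Y/+ and 3.99, 5.77 and 4.82 in S3 animals 540, 815 and 768. Fcgr4 in BM CD11b+ cells measured 7.60 and 5.64 in MxCre, 5.77 and 5.67 in Ptpn11D61Y/+ and 7.74, 7.24 and 9.31 in S3 animals 540, 815 and 640. The Fcgr4 values in spleen CD11b+ cells were 7.62 and 7.97 in MxCre, 6.69 and 6.17 in Ptpn11D61Y/+ and 9.74, 9.32 and 9.85 in S3 animals 540, 815 and 640. All S3 libraries lay above all control libraries in LSK and in spleen, and in the BM only MxCre 1 reached into the S3 range. In LSK cells the difference between S3 and Ptpn11D61Y/+ was 5.16 ± 0.79 (edgeR adjusted p = 0.0171, 95% interval 3.49 to 6.82). Fcgr4 and Ace were the 2 of the 10 genes that rose in that comparison, where 0.0972% of all genes passed and 0.092% rose. It lost the call when either Ptpn11D61Y/+ library was left out (edgeR adjusted p = 0.359 and 0.650, log2 difference 5.48 and 4.89). Against MxCre the LSK difference was 1.96 ± 0.66 (edgeR adjusted p = 0.872). In the spleen it was 1.85 ± 0.66 against MxCre (edgeR adjusted p = 0.104, DESeq2 adjusted p = 0.035) and 3.20 ± 0.70 against Ptpn11D61Y/+ (edgeR adjusted p = 0.134, DESeq2 adjusted p = 0.00041). In the BM it was 1.46 ± 0.64 against MxCre (edgeR adjusted p = 0.297) and 2.66 ± 0.68 against Ptpn11D61Y/+ (edgeR adjusted p = 0.425, DESeq2 adjusted p = 0.00711). The BM difference of Fcgr4 from MxCre ran from 0.59 to 2.76 when 1 library was left out. Set against the average of both control genotypes, a comparison chosen after seeing the data, Fcgr4 was 3.56 higher in LSK cells (edgeR adjusted p = 0.0298), 2.06 in the BM (0.247) and 2.53 in the spleen (0.0700), where 0.0409%, 0.0767% and 0% of all genes passed.

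Nr4a1, the nuclear receptor that patrolling monocytes depend on and that many cells induce within minutes of stimulation, went the other way in LSK and spleen cells. In LSK cells it measured 8.76 and 8.50 log2 CPM in MxCre, 7.30 and 7.60 in Ptpn11D61Y/+ and 5.17, 6.35 and 5.47 in S3. Nr4a1 in BM CD11b+ cells measured 9.87 and 7.32 in MxCre, 8.15 and 8.25 in Ptpn11D61Y/+ and 7.54, 7.13 and 9.68 in S3. The Nr4a1 values in spleen CD11b+ cells were 12.39 and 11.91 in MxCre, 9.65 and 11.50 in Ptpn11D61Y/+ and 9.47, 10.06 and 9.69 in S3. All S3 libraries were below all MxCre libraries in LSK and in spleen, below both Ptpn11D61Y/+ libraries in LSK, and the groups overlapped in the BM. The difference from MxCre was -2.88 ± 0.75 in LSK cells (edgeR adjusted p = 0.477, 0.0163 with only the 2 groups in the fit, DESeq2 adjusted p = 0.0209) and -2.41 ± 0.74 in the spleen (edgeR adjusted p = 0.0707, DESeq2 adjusted p = 0.0134). The difference from Ptpn11D61Y/+ was -1.70 ± 0.73 in LSK cells and -1.09 ± 0.73 in the spleen (edgeR adjusted p = 0.805 and 0.772), and with only the 2 groups in the fit the LSK difference passed (-1.75, edgeR adjusted p = 0.0410). In the BM the difference from MxCre was -0.52 ± 0.74 and turned to 0.097 with library sizes alone and to 1.27 without MxCre 1.

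Other immediate-early genes, which cells switch on rapidly after stimulation or handling, were mostly lower in S3 than in MxCre in all 3 cell types. In LSK cells 13 of 13 were lower in S3 than in MxCre with groups that did not overlap (28.9% of all genes), and none passed the threshold (median log2 difference -2.10, all genes 0.00607). In the spleen 10 of 13 were lower (median -1.71, all genes 0.32), and Junb, a subunit of the AP-1 transcription factor, fell (-3.21 ± 0.83, edgeR adjusted p = 0.0400). Junb passed in 5 of 13 alternatives with adjusted p-values up to 0.225, and without the 3 libraries with reads of Xist and of Y genes it was -3.12 (edgeR adjusted p = 0.0504). In BM cells, where Nr4a1 overlapped between S3 and MxCre, 12 of 13 were lower than in MxCre (median -1.21, all genes 0.176). Of these 2 were lower without overlap (5.49% of all genes), and none passed. Against Ptpn11D61Y/+ 12 of 13 were lower in LSK cells (median -1.62, all genes 0.0444). There 11 were lower without overlap (27.5% of all genes), and none passed. The summed level of the 13 genes in LSK cells was 15433 and 12911 CPM in MxCre, 11008 and 12013 in Ptpn11D61Y/+ and 3797, 3627 and 1031 in S3. In spleen cells the sum was 44094 and 48535 CPM in MxCre, 5079 and 27706 in Ptpn11D61Y/+ and 11784, 12140 and 12405 in S3. In BM cells it was 43398 CPM in MxCre 1 and 7201 in MxCre 2, the library pair in which Nr4a1 measured 9.87 and 7.32. In BM cells of S3 mice it was 8130, 6061 and 7684 CPM in animals 540, 815 and 640, and in Ptpn11D61Y/+ 11850 and 12291. Animal 640, with Nr4a1 at 9.68, was not the highest of them. The part of these genes in the level of Nr4a1 was not tested. The paralogs Nr4a2 (-2.5 ± 0.85) and Nr4a3 (-4.19 ± 1.32) were lower in all S3 spleen libraries than in MxCre and did not pass (edgeR adjusted p = 0.0917 and 0.0764). In LSK cells the difference from MxCre was -1.67 for Nr4a2 and 0.79 for Nr4a3.

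Ace, the peptidase that converts angiotensin I and that patrolling monocytes carry, was nearly absent from LSK cells of Ptpn11D61Y/+ mice. It measured 4.46 and 3.80 log2 CPM there in MxCre, -1.09 and -0.42 in Ptpn11D61Y/+ (69 and 86 counts) and 2.85, 6.28 and 5.14 in S3 (977, 7438 and 4724 counts). Ace in BM CD11b+ cells measured 3.81 and 3.07 in MxCre, 3.17 and 3.89 in Ptpn11D61Y/+ and 5.47, 3.88 and 6.86 in S3. The Ace values in spleen CD11b+ cells were 8.28 and 7.84 in MxCre, 6.0 and 7.27 in Ptpn11D61Y/+ and 6.84, 7.23 and 6.63 in S3. S3 libraries were above MxCre in the BM and below MxCre in the spleen with no overlap, and overlapped with MxCre in LSK cells. In LSK cells Ace was 6.10 ± 1.05 higher in S3 than in Ptpn11D61Y/+ (edgeR adjusted p = 0.0297). The call was lost under 8 alternatives, among them library sizes alone (edgeR adjusted p = 0.0635), no filter (0.0611), the 2 groups fitted alone (0.0648) the 3 libraries with reads of Xist and of Y genes left out (0.0828) and either Ptpn11D61Y/+ library left out (0.837 and 0.713), while the difference stayed between 5.21 and 6.61 under all alternatives tried. Against MxCre the difference was 2.38 ± 0.86 in the BM (edgeR adjusted p = 0.242) and -1.15 ± 0.76 in the spleen (0.344).

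Cx3cr1, the receptor for fractalkine, lay above both controls in CD11b+ cells of S3 marrow. In LSK cells it measured 4.07 and 3.72 log2 CPM in MxCre, 2.36 and 1.34 in Ptpn11D61Y/+ and 3.39, 5.77 and 5.37 in S3. Cx3cr1 in BM CD11b+ cells measured 6.20 and 5.84 in MxCre, 5.21 and 5.39 in Ptpn11D61Y/+ and 6.62, 7.88 and 6.81 in S3. The Cx3cr1 values in spleen CD11b+ cells were 8.04 and 6.01 in MxCre, 6.38 and 6.86 in Ptpn11D61Y/+ and 7.24, 8.15 and 7.12 in S3. S3 was above both controls in the BM without overlap, above Ptpn11D61Y/+ in all 3 cell types and overlapped with MxCre in LSK and spleen. With all libraries no difference passed with edgeR. It was 1.18 ± 0.65 against MxCre and 1.91 ± 0.68 against Ptpn11D61Y/+ in the BM (edgeR adjusted p = 0.383 and 0.528), and 3.22 ± 0.72 against Ptpn11D61Y/+ in LSK cells (edgeR adjusted p = 0.163, DESeq2 adjusted p = 0.00149). Without LSK S3 540 the LSK difference from Ptpn11D61Y/+ was 3.66 and passed (edgeR adjusted p = 0.0315). The call was made in only 2 of 12 alternatives, DESeq2 and this one. When 1 library was left out the difference ran from 2.77 to 3.83. LSK S3 540 itself held 1 count of Xist beside its reads of Y genes, and the BM and spleen libraries of that number held both.

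The classical genes overlapped with their MxCre levels in S3 spleen, and Ccr2 lay above both controls in S3 marrow without passing the test. Ccr2, the receptor that lets monocytes leave the BM, measured 4.37 and 4.37 log2 CPM in LSK cells of MxCre, 4.0 and 3.94 in Ptpn11D61Y/+ and 4.93, 6.60 and 6.55 in S3. Ccr2 in BM CD11b+ cells measured 5.49 and 7.51 in MxCre, 7.45 and 7.34 in Ptpn11D61Y/+ and 8.37, 8.52 and 7.56 in S3. The Ccr2 values in spleen CD11b+ cells were 6.82 and 6.96 in MxCre, 5.2 and 8.06 in Ptpn11D61Y/+ and 6.17, 6.85 and 7.17 in S3. All S3 libraries were above all control libraries in LSK and BM cells, by 1.83 ± 0.72 and 1.38 ± 0.70 against MxCre and by 2.24 ± 0.73 and 0.81 ± 0.69 against Ptpn11D61Y/+, and none of the 4 differences passed (edgeR adjusted p between 0.353 and 1). The BM difference of Ccr2 from MxCre ran from 0.70 to 2.74 when 1 library was left out. In the spleen the groups overlapped.

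Ly6c2, the gene of the antigen that defines the classical subset, measured 6.98 and 5.82 log2 CPM in LSK cells of MxCre, 6.59 and 6.50 in Ptpn11D61Y/+ and 6.77, 7.26 and 7.97 in S3. Ly6c2 in BM CD11b+ cells measured 7.73 and 9.70 in MxCre, 10.11 and 9.83 in Ptpn11D61Y/+ and 10.46, 9.69 and 9.37 in S3. The Ly6c2 values in spleen CD11b+ cells were 7.99 and 8.85 in MxCre, 6.14 and 7.95 in Ptpn11D61Y/+ and 9.03, 8.26 and 8.06 in S3. S3 overlapped with MxCre in all 3 cell types and lay above Ptpn11D61Y/+ in LSK and spleen cells, where the spleen difference was 1.2 ± 0.64 (edgeR adjusted p = 0.636). The spleen difference from MxCre was 0.03 ± 0.61 with a 95% interval from -1.26 to 1.33.

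Fn1 and F13a1, genes of matrix and clotting proteins that classical monocytes make, varied widely between libraries of 1 group in BM CD11b+ cells of MxCre and S3 mice. In BM CD11b+ cells Fn1 measured 3.58 and 7.19 log2 CPM in MxCre, 8.68 and 9.20 in Ptpn11D61Y/+ and 8.98, 6.04 and 9.92 in S3. The Fn1 values in spleen CD11b+ cells were 6.67 and 8.03 in MxCre, 5.83 and 8.68 in Ptpn11D61Y/+ and 6.56, 4.30 and 9.36 in S3. In S3 mice animal 815 was the lowest and animal 640 the highest in both organs. In LSK cells Fn1 ran from 2.5 to 4.58 over the 7 libraries, and the 3 S3 libraries lay below both MxCre libraries (-1.06 ± 1.21, edgeR adjusted p = 1). F13a1 measured 5.29 and 4.99 in LSK cells of MxCre, 5.67 and 5.04 in Ptpn11D61Y/+ and 4.97, 7.19 and 7.47 in S3. F13a1 in BM CD11b+ cells measured 4.43 and 7.23 in MxCre, 8.0 and 8.40 in Ptpn11D61Y/+ and 8.80, 7.23 and 6.56 in S3, and in the spleen it ran from 4.66 to 7.86 over the 7 libraries. The S3 and control groups overlapped for F13a1 in all 6 comparisons. The widest intervals of the 10 genes belonged to Fn1, for example 2.70 with a 95% interval from -0.19 to 5.60 against MxCre in the BM.

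Lyz2 and Ctss, the genes shared by both kinds of monocyte, did not pass in any comparison between genotypes with edgeR over all groups and libraries. With only the 2 groups in the fit, Lyz2 (-2.01, edgeR adjusted p = 6.44e-05) and Ctss (-0.48, 0.0142) were lower in LSK cells of Ptpn11D61Y/+ than of MxCre. In BM cells Ctss was lower in Ptpn11D61Y/+ than in MxCre without MxCre 2 (-1.95, edgeR adjusted p = 0.0157) and without the 3 libraries with reads of Xist and of Y genes (-1.95, 0.0271). In LSK cells Lyz2 measured 8.95 and 8.71 log2 CPM in MxCre, 6.83 and 6.80 in Ptpn11D61Y/+ and 7.11, 9.10 and 7.80 in S3. Lyz2 in BM CD11b+ cells measured 11.85 and 12.04 in MxCre, 13.54 and 13.50 in Ptpn11D61Y/+ and 13.14, 11.35 and 11.76 in S3. The Lyz2 values in spleen CD11b+ cells were 12.13 and 12.98 in MxCre, 12.41 and 12.62 in Ptpn11D61Y/+ and 13.21, 11.71 and 11.89 in S3. S3 was above Ptpn11D61Y/+ in LSK cells (1.43 ± 0.64, edgeR adjusted p = 0.828) and below it in BM cells (-1.22 ± 0.60, edgeR adjusted p = 0.623) without overlap, and it overlapped with MxCre in all 3 cell types. Ctss measured 6.04 and 6.02 in LSK cells of MxCre, 5.39 and 5.66 in Ptpn11D61Y/+ and 6.10, 7.09 and 6.44 in S3. Ctss in BM CD11b+ cells measured 10.34 and 8.01 in MxCre, 8.42 and 8.33 in Ptpn11D61Y/+ and 9.50, 9.24 and 9.77 in S3. The Ctss values in spleen CD11b+ cells were 9.83 and 10.07 in MxCre, 10.01 and 10.34 in Ptpn11D61Y/+ and 10.67, 10.99 and 9.72 in S3. S3 was above both controls in LSK cells and above Ptpn11D61Y/+ in BM cells (1.15 ± 0.53, edgeR adjusted p = 0.597). In BM cells the difference of Ctss from MxCre was -0.09 ± 0.51 and turned to 0.34 with library sizes alone and to 1.52 without MxCre 1.

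Counted over the 10 genes, none passed between S3 and MxCre in any of the 3 cell types with edgeR over all groups. In LSK cells, where 0.0307% of all genes passed, 3 of the 10 had an unadjusted p under 0.05 (3.97% of all genes). With DESeq2 1 of the 10 passed, as did 125 of all genes. In BM cells, where 0% of all genes passed, 2 had an unadjusted p under 0.05 (15.5% of all genes). DESeq2 called 0 of the 10 and 976 of all genes in these cells. In spleen cells, where 4.19% of all genes passed, 2 had an unadjusted p under 0.05 (25.3% of all genes). There DESeq2 called 2 of the 10 and 3438 of all genes. Groups that did not overlap were found for 3 genes higher and 2 lower in LSK cells (29.1% and 28.9% of all genes), for 3 higher and 0 lower in BM cells (5.74% and 5.49%) and for 1 higher and 2 lower in spleen cells (20.2% and 12.9%). The median difference over the 10 genes was 1.03 in LSK cells (all genes 0.00607), 1.28 in BM cells (all genes 0.176) and -0.04 in spleen cells (all genes 0.32). With library sizes alone the median of all genes moved to 0.552 in BM cells and to 0.774 in spleen cells. Between S3 and Ptpn11D61Y/+, 7 genes were higher and 1 lower without overlap in LSK cells (32% and 27.5% of all genes). In the same contrast 4 genes were higher and 1 lower without overlap in BM cells (7.97% and 18.2% of all genes) and 3 were higher and 0 lower in spleen cells (9.5% and 12.2%), with none past the threshold (0% and 0.00511% of all genes). There 4 and 1 of the 10 had an unadjusted p under 0.05 (8.22% and 8.88% of all genes). DESeq2 called 1 and 1, in both cases Fcgr4, where it called 253 and 383 of all genes.

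**Figure D2:**
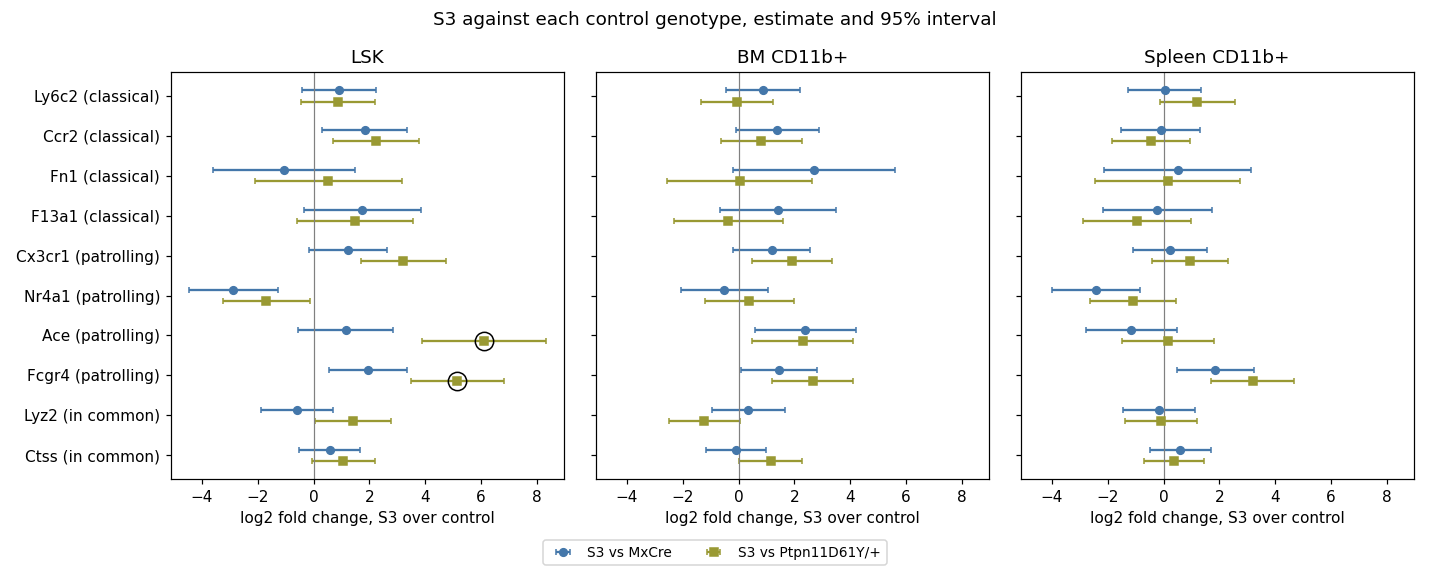
Log2 difference of each of the 10 genes between S3 and each control genotype in the 3 cell types, with its 95% interval from edgeR, where circles mark adjusted p under 0.05. Fcgr4 and Cx3cr1 lay above 0 in all 6 comparisons, and Fcgr4 and Ace passed in LSK cells against Ptpn11D61Y/+.

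The control genotypes also differed from each other in LSK cells. In Ptpn11D61Y/+ 8 of the 10 genes were lower and 0 higher than in MxCre without overlap, where 29.4% and 28.3% of all genes were. None passed with edgeR over all groups (0.0614% of all genes passed), and 4 had an unadjusted p under 0.05 (1.69% of all genes). DESeq2 called 2 of the 10 and 103 of all genes. With only the 2 groups in the edgeR fit 7 of the 10 passed, all lower in Ptpn11D61Y/+, where 2508 of all genes passed, namely Ccr2, Fn1, Nr4a1, Ace, Fcgr4, Lyz2 and Ctss. In the fit over all groups the largest differences were those of Ace (-4.95 ± 1.01, edgeR adjusted p = 0.091, DESeq2 adjusted p = 2.05e-05), Fcgr4 (-3.20 ± 0.73, edgeR adjusted p = 0.188, DESeq2 adjusted p = 0.00303) and Lyz2 (-2.02 ± 0.69, edgeR adjusted p = 1). The rises of Ace and Fcgr4 in S3 LSK cells were thus measured against the control with the lowest values. In BM CD11b+ cells Lyz2 (1.57 ± 0.68), Fn1 (2.66 ± 1.42), F13a1 (1.79 ± 1.05) and Ly6c2 (0.95 ± 0.67) were higher in Ptpn11D61Y/+ than in MxCre without overlap, where 38.7% of all genes were, and Cx3cr1 (-0.73 ± 0.69) was lower, where 19% were. None passed with edgeR (0% of all genes), 2 had an unadjusted p under 0.05 (22.6% of all genes) and DESeq2 called 0 (1871 of all genes). In spleen cells Fcgr4 (-1.35 ± 0.68), Nr4a1 (-1.32 ± 0.83), Ace (-1.30 ± 0.86) and Ly6c2 (-1.17 ± 0.68) were lower and 0 genes higher without overlap, where 21.4% and 34.5% of all genes were. None passed with edgeR (5.11% of all genes), 0 had an unadjusted p under 0.05 (24.7% of all genes) and DESeq2 called 0 (3401 of all genes). In the same libraries 14 of 14 mature neutrophil genes were lower (11 passed), and 6 of 6 B cell genes (2 passed), 6 of 6 NK cell genes and 5 of 6 T cell genes were higher (none of the NK and T cell genes passed). The summed level of the B cell genes, with Cd79a or Cd79b the most abundant, was 1433 and 2024 CPM in Ptpn11D61Y/+, 220 and 96.1 in MxCre and 891, 801 and 81.1 in S3. The part of these cells in the monocyte genes was not tested.

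Other genes of patrolling monocytes were mostly higher in S3 LSK cells than in either control, and in the spleen their split was not the same against the 2 controls. Of 12 such genes 11 were higher in S3 than in Ptpn11D61Y/+ in LSK cells (median 1.81, all genes 0.0444), and 10 were higher than in MxCre (median 0.885, all genes 0.00607). Clec4a1, a C-type lectin receptor, rose against Ptpn11D61Y/+ by 4.92 ± 0.78 (edgeR adjusted p = 0.0207) and Ear2, a ribonuclease of the eosinophil-associated family, by 3.56 ± 0.61 (edgeR adjusted p = 0.0297). Clec4a1 passed in 9 of 12 alternatives and Ear2 in 6 of 12, with adjusted p-values up to 0.713 and 0.943, and Ear2 missed the threshold without the 3 libraries with reads of Xist and of Y genes (3.55, edgeR adjusted p = 0.0732). Treml4 (3.88 ± 0.79) and Adgre4 (4.78 ± 0.98), surface receptors of the same cells, were higher than in Ptpn11D61Y/+ without overlap and did not pass (edgeR adjusted p = 0.0852 and 0.0890). In the spleen 7 of the 12 were higher and 5 lower in S3 than in MxCre (median 0.34, all genes 0.32), whereas 11 were higher and 1 lower than in Ptpn11D61Y/+ (median 0.508, all genes 0.0661). Cebpb and Klf2, transcription factors used in patrolling monocytes and in many other cells, fell in S3 spleen against MxCre (-4.15 ± 1.03 and -2.47 ± 0.67, edgeR adjusted p = 0.0342 and 0.0494). They passed in 6 and 3 of 13 alternatives, and not without the 3 libraries with reads of Xist and of Y genes (-4.15 and -2.44, edgeR adjusted p = 0.0580 and 0.0911). Spn, the gene of CD43, which LSK cells also carry, measured 1.15 ± 0.52 higher without overlap (edgeR adjusted p = 0.179).

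Other genes of classical monocytes did not pass between S3 and either control in any of the 3 cell types. Of the 12, 1 passed as lower in Ptpn11D61Y/+ than in MxCre in LSK cells and 1 in the spleen, where 0.0614% and 5.11% of all genes passed. Between BM and LSK cells 6 passed as higher in BM of MxCre mice and 8 in BM of S3 mice, where 16.6% and 14.4% of all genes rose. In S3 spleen 4 of 12 were higher and 8 lower than in MxCre (median -0.53, all genes 0.32), whereas 11 were higher and 1 lower than in Ptpn11D61Y/+ (median 0.296, all genes 0.0661). Cd14, a co-receptor for lipopolysaccharide, differed from MxCre by -2.15 ± 0.73 (edgeR adjusted p = 0.0929) without overlap. In S3 BM 8 of 12 were higher than in MxCre, and Vcan, a matrix proteoglycan, was 4.22 ± 1.43 higher without overlap (edgeR adjusted p = 0.229). Of 14 genes that both kinds of monocyte carry, 8 were higher and 6 lower in S3 spleen than in MxCre (median 0.13) and 11 higher and 3 lower than in Ptpn11D61Y/+ (median 0.188), and Csf1r, the receptor for the growth factor of monocytes, differed by -0.08 ± 0.68. In LSK cells 13 of the 14 were higher in S3 than in Ptpn11D61Y/+ without overlap, where 32% of all genes were, led by Fcgr1, a high-affinity IgG receptor (3.56 ± 0.66, edgeR adjusted p = 0.0561), and Csf1r (2.60 ± 0.76, edgeR adjusted p = 0.398).

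Of the ligands, Csf1, which binds Csf1r, fell by 4.74 ± 0.85 in S3 spleen against MxCre (edgeR adjusted p = 0.0092) and passed in 11 of 13 alternatives. Ccl2, the main ligand of Ccr2, differed by -2.61 ± 0.79 (edgeR adjusted p = 0.0682), Ccl7 by 0.07 ± 1.42 and Ccl12 by 2.66 ± 1.05 (edgeR adjusted p = 0.994 and 0.135). Cx3cl1, which encodes fractalkine, had no counts in either MxCre spleen library and between 11 and 23 in the S3 libraries. Of the paralogs, Fcgr3 (-0.69 ± 0.49), Fcgr2b (0.54 ± 0.46) and Lyz1 (1.43 ± 1.02), the other IgG receptors and lysozyme, did not pass in S3 spleen against MxCre. Ly6c1 had between 1 and 3 counts in MxCre spleen and between 12 and 32 in S3 spleen.

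CD11b+ cells are a mixture, and in such bulk samples fewer cells of a type and less RNA per cell cannot be told apart. The summed level of 14 mature neutrophil genes, with S100a9 the most abundant, was 76286 and 147150 CPM in MxCre spleen, 5089 and 9410 in Ptpn11D61Y/+ spleen and 101140, 45556 and 45007 in S3 spleen. In LSK cells it was 3259 and 2786 CPM in MxCre, 423 and 350 in Ptpn11D61Y/+ and 830, 1666 and 1111 in S3, so the LSK libraries lowest in Ace and Fcgr4 were also lowest in neutrophil genes. Mature neutrophils express Fcgr4 too, and the part of these genes in its differences was not tested. In S3 spleen, where Fcgr4 was highest, the neutrophil sum lay within the range of MxCre or below it and above both Ptpn11D61Y/+ libraries, and 12 of the 14 genes were higher than in Ptpn11D61Y/+ at an unadjusted p under 0.05 (8.88% of all genes in either direction). In LSK cells genes of other myeloid cells also lay higher in S3 than in Ptpn11D61Y/+, and none of them passed. They were 13 of 14 mature neutrophil, 5 of 5 primary granule, 10 of 10 tissue macrophage, 9 of 9 dendritic cell and 4 of 4 eosinophil genes. Of lymphoid genes 5 of 6 NK cell, 4 of 6 T cell and 3 of 6 B cell genes were higher, and none passed.

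The BM libraries differed in macrophage and erythroid genes. The summed level of 10 tissue macrophage genes was 18505 CPM in BM MxCre 1 and 656 in BM MxCre 2, 582 and 603 in Ptpn11D61Y/+ and 1766, 1999 and 3579 in S3. BM MxCre 1 was also the MxCre library with the higher Ctss, Fcgr4 and Nr4a1 and the lower Ly6c2, Ccr2, Fn1 and F13a1. The erythroid sum was 27868 and 143080 CPM in BM MxCre, 121370 and 126400 in Ptpn11D61Y/+ and 48396, 71838 and 11742 in S3. In the spleen it was 1943 and 789 CPM in MxCre, 3576 and 837 in Ptpn11D61Y/+ and 10896, 10080 and 23906 in S3. The part of these cells in the monocyte genes was not tested.

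**Figure D3:**
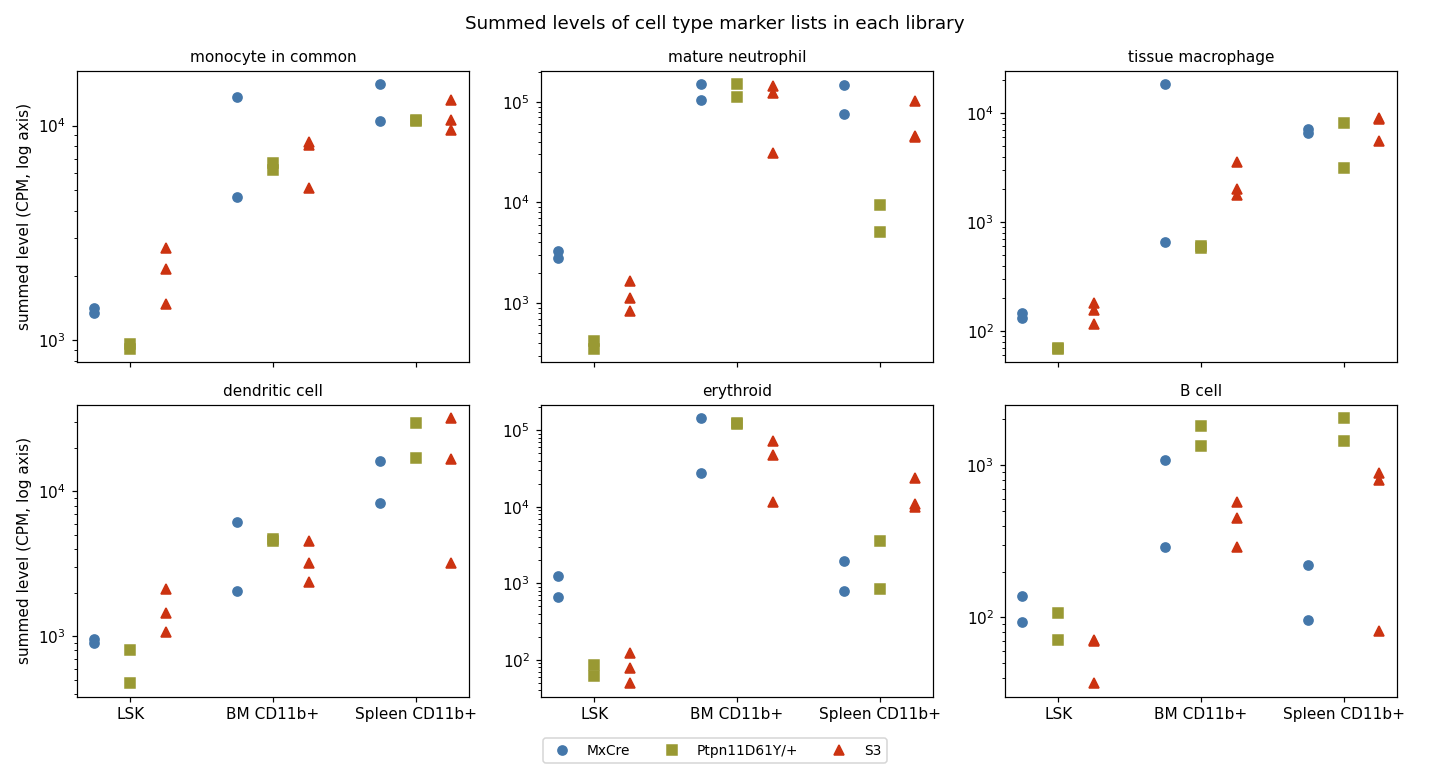
Summed level of marker genes of monocytes, neutrophils, macrophages, dendritic cells, erythroid cells and B cells (y axis, CPM, log scale) in each library, by cell type sorted and genotype. BM MxCre 1 stands at 18505 CPM of macrophage genes, and the other 6 BM libraries lie between 582 and 3579.

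Spleen and BM were compared within a genotype. In MxCre mice Ace was 8.28 and 7.84 log2 CPM in the spleen and 3.81 and 3.07 in the BM, a rise of 4.59 ± 0.99 (edgeR adjusted p = 0.0423), where 0.915% of all genes passed. With the replicate number as a block it was 4.62 (edgeR adjusted p = 0.096). The call was also lost without BM MxCre 2 (4.27, edgeR adjusted p = 0.0986), without spleen MxCre 1 (4.36, edgeR adjusted p = 0.105) and with library sizes alone (4.54, edgeR adjusted p = 0.0688). It was lost too without the filter (0.0655), without the 3 libraries with the fewest genes (0.0503), without the 3 with reads of Xist and of Y genes (0.142) and with only the 2 groups in the fit (0.339), so that it held in 4 of 12 alternatives. Nr4a1 was 3.08 ± 0.88 higher in the spleen (edgeR adjusted p = 0.0934, DESeq2 adjusted p = 0.0105) and 4.85 without BM MxCre 1 (edgeR adjusted p = 0.0257), and without that library Ctss was 1.94 higher (edgeR adjusted p = 0.0462).

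In S3 mice the fitted differences between spleen and BM were negative for all 4 classical genes and positive for all 4 patrolling genes. In MxCre mice the 4 patrolling genes were positive too (0.88 to 4.59), and 2 classical genes were negative and 2 positive. In Ptpn11D61Y/+ mice, where this difference was not tested, the group means had the same directions as in S3. Ly6c2 went from 9.97 in BM to 7.05 in spleen, and Ace from 3.53 to 6.63. Between the Ptpn11D61Y/+ libraries numbered 2, however, Ccr2 was 0.712 higher in the spleen. In S3 mice none of the 10 passed with edgeR, where 0.0563% of all genes passed. Of the 10, 4 had an unadjusted p under 0.05, as did 9.77% of all genes, and DESeq2 called 0 (554 of all genes). Spleen minus BM within animals 540, 815 and 640 was -1.43, -1.43 and -1.31 for Ly6c2, -2.20, -1.67 and -0.39 for Ccr2 and 2.0, 2.09 and 0.54 for Fcgr4. The fitted differences were -1.40 ± 0.56 for Ly6c2, -1.42 ± 0.61 for Ccr2 and 1.27 ± 0.56 for Fcgr4 (edgeR adjusted p = 0.403, 0.455 and 0.467). Ly6c2 and Ccr2 were lower without overlap, where 2.73% of all genes were, and Fcgr4 was higher, where 4.73% were. Animal 640 went the other way for F13a1 (0.419, against -3.19 and -2.57 in animals 540 and 815) and Ace (-0.226, against 1.37 and 3.35), and Nr4a1 was 0.004 in that animal (1.94 and 2.93 in animals 540 and 815). Of the 12 other classical genes 6 were higher and 6 lower in the spleen (median -0.008, all genes 0.0944), and of the 12 other patrolling genes 10 were higher and 2 lower (median 0.643). Both libraries of animal 540 held reads of Xist and of Y genes.

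**Figure D4:**
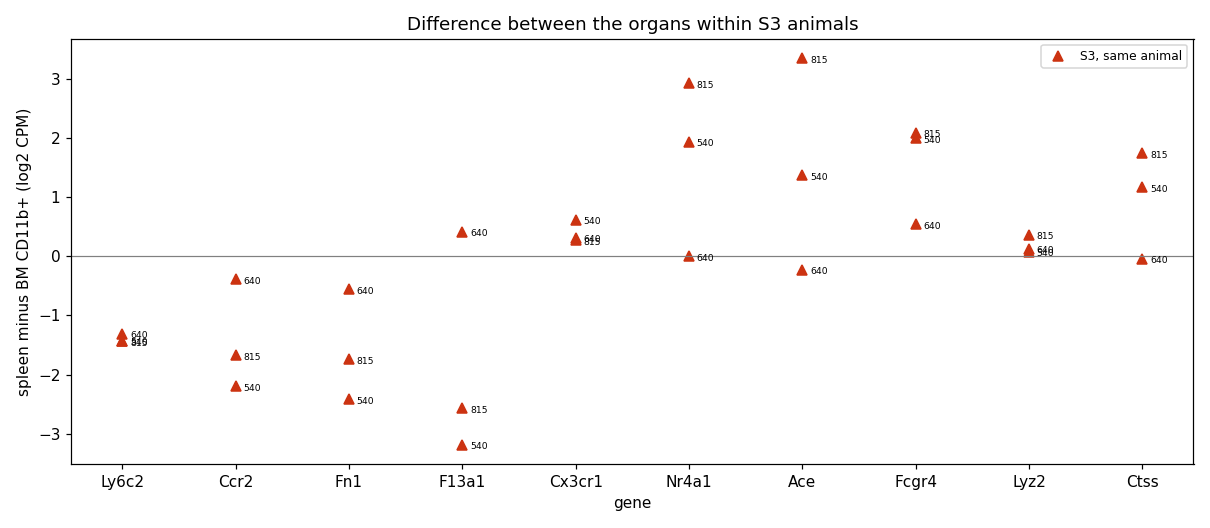
Spleen minus BM difference of each of the 10 genes (y axis, log2 CPM; x axis, gene) for S3 animals 540, 815 and 640, each triangle 1 animal by its label number. Ly6c2 lies between -1.43 and -1.31 in the 3 animals, and Ccr2 between -2.20 and -0.39.

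Whether the S3 difference itself depended on the organ was tested as an interaction. None of the 10 genes passed with edgeR (0% of all genes), and 1 had an unadjusted p under 0.05 (10.7% of all genes). DESeq2 called 0 of the 10 (523 of all genes). Ace had the largest value, with 2.38 in the BM and -1.15 in the spleen, a difference of -3.54 ± 1.13 (edgeR adjusted p = 0.313, 95% interval -5.94 to -1.14).

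Across the 14 CD11b+ libraries some of the genes varied together. Pearson correlations of log2 CPM were 0.821 for Nr4a1 and Ace, 0.819 for Ccr2 and F13a1, 0.789 for Fn1 and F13a1 and 0.723 for Ly6c2 and Ccr2. Fcgr4 correlated with Ctss at 0.679, with Cx3cr1 at 0.608, with Ace at 0.598 and with Nr4a1 at 0.284. The lowest values were -0.667 for F13a1 and Ctss, -0.617 for Cx3cr1 and Lyz2 and -0.605 for Ly6c2 and Nr4a1. The points share organ, genotype and in part the animal, so the values describe these libraries and carry no p.

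**Figure D5:**
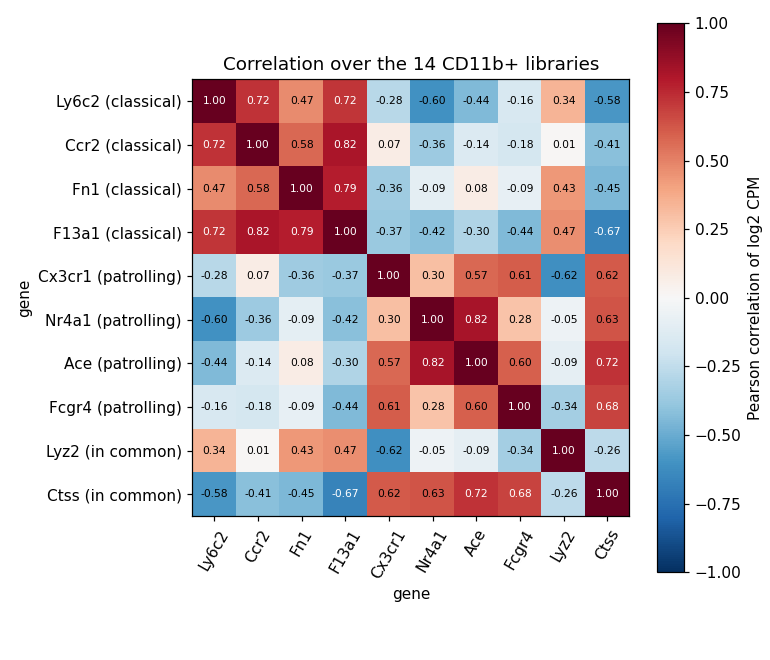
Pearson correlation of log2 CPM between each pair of the 10 genes over the 14 CD11b+ libraries of BM and spleen, as a colour from -1 to 1. The highest pair is Nr4a1 and Ace with 0.821 and the lowest F13a1 and Ctss with -0.667.

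Over the same 14 libraries, the genes most like each member were looked up among 8595 genes. Among those nearest to Fcgr4 were Clec4a1 (0.902) and Gk (0.899), and those nearest to Nr4a1 were Errfi1 (0.964), Bhlhe40 (0.957) and Araf (0.946). For Ace they were Tubb6 (0.973), Nupr1 (0.956) and Zfyve9 (0.95), and for Ctss Aig1 (0.964), Apoe (0.963) and Tmem51 (0.958). For Ly6c2 they were Tuba8 (0.96), Sytl1 (0.953) and 1700020L24Rik (0.94), and for Ccr2 Tbrg4 (0.821), F13a1 (0.819) and Tiam1 (0.81). For Fn1 they were Esyt1 (0.921), Acap3 (0.916) and Grk6 (0.915), and for F13a1 Cd300lg (0.89), Cep78 (0.867) and Odc1 (0.845). For Cx3cr1 they were Slc25a22 (0.867), AU022252 (0.854) and Ticam2 (0.854), and for Lyz2 Arhgap15 (0.889), Rac2 (0.875) and H3f3a (0.87).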

How the data were processed

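RNA of 21 libraries was sequenced after a stranded library preparation. According to the submitters' processing notes reads were demultiplexed with bcl2fastq 2.20.0.422, checked with FastQC 0.11.9, trimmed with Trim Galore 0.6.5 and aligned with STAR 2.5.3a to GRCm38. The authors deposited raw counts per gene, 1 file per library. The counting program, its annotation and its use of strand are not given in the sources used here, so reads of overlapping antisense genes may be included.

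Libraries were grouped by cell type and genotype from the labels. The counts were filtered with filterByExpr (minimum count 10, total 15), scaled by TMM and fitted with edgeR 4.0.16 (R 4.3.3, limma 3.58.1) in a robust quasi-likelihood model of 9 groups with 12 residual degrees of freedom. Benjamini-Hochberg adjustment ran over all 19555 genes in each of 14 comparisons, with a threshold of 0.05. Intervals of 95% used edgeR's degrees of freedom. Log2 CPM used a prior count of 2, and CPM per kb used exon lengths of the GENCODE annotation. The tested genes held 99.988% of all counts. Each group had 2 or 3 libraries. The models were run on simulated data, and no outcome of that run is given here. Genes were named by rule, namely the 10 members, their ligands and paralogs, up to 4 genes of each marker list and the 3 genes most like each member. Some genes that the rule names are not reported here. The members and lists were chosen with earlier results of these data known.

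Alternatives were DESeq2 1.42.0, RLE factors, library sizes alone, no filter, only the groups compared, a replicate block and leaving out each library. After seeing the data, 3 more were added, without the 3 libraries with the fewest genes, without the 3 with reads of Xist and of Y genes, and S3 against the average of both controls.

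Pairing was checked by correlating deviations from group means over 8774 genes. The S3 animal numbers come from the labels, and BM and spleen of the same animal correlated at 0.222, 0.661 and 0.466. LSK and BM of the same animal correlated at 0.162 (540) and -0.108 (815), and animals 768 and 640 gave no such pair. The MxCre numbers (0.0113 for BM and spleen) and the Ptpn11D61Y/+ numbers (-0.312) share only a number.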

Additional observations from a re-analysis of the deposited data

Results flagged for a closer look

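In 5 cases a member went up in every library of one cell type and down in every library of another under the same contrast. Ace was higher in S3 than in MxCre in BM CD11b+ cells (2.38) and lower in spleen CD11b+ cells (-1.15), a difference of -3.54 on the log2 scale, which the interaction test did not call (edgeR adjusted p = 0.313). The difference between cell types was not tested for the other 4. Lyz2 was higher in S3 than in Ptpn11D61Y/+ in LSK cells (1.43) and lower in BM CD11b+ cells (-1.22), a difference of -2.65. Lyz2 was lower in Ptpn11D61Y/+ than in MxCre in LSK cells (-2.02) and higher in BM CD11b+ cells (1.57), a difference of 3.59. Fn1 was lower in Ptpn11D61Y/+ than in MxCre in LSK cells (-1.59) and higher in BM CD11b+ cells (2.66), a difference of 4.26. Ly6c2 was higher in Ptpn11D61Y/+ than in MxCre in BM CD11b+ cells (0.95) and lower in spleen CD11b+ cells (-1.17), a difference of -2.11.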

How the results depend on the processing

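Of 140 results for the 10 genes, 17 passed the threshold, and none of these 17 changed direction under any alternative tried. Alternatives other than leaving out 1 library gave 1090 values, of which 50 changed direction, 28 lost a call and 21 gained one. Leaving out 1 library gave 720 values, of which 67 changed direction, 24 lost a call and 4 gained one. Where this left a group with 1 library, that library was assumed to vary like the other groups. The causes were not tested. Without BM MxCre 2, 2040 genes passed for S3 against MxCre in BM and 2852 for Ptpn11D61Y/+ against MxCre, where none passed with all libraries. With library sizes alone the median of all genes moved from -0.283 to -1.34 for BM against LSK in MxCre and from -0.0787 to -0.643 in S3. The last 3 alternatives before leaving out 1 library were chosen after seeing the data.

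No paired analysis was possible because S3 and the control genotypes share no replicate numbers, which holds for S3 against MxCre and against Ptpn11D61Y/+. With the animal as a block the calls of Fn1 (3.44) and Nr4a1 (2.03) between BM and LSK in S3 were lost, and with the MxCre number as a block that of Ace between spleen and BM (4.62). The block changed no other call of the 10 genes.

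The number of genes past the threshold over all 19555 genes was 6 for S3 against MxCre in LSK, 0 for S3 against MxCre in BM, 819 for S3 against MxCre in spleen, 19 for S3 against Ptpn11D61Y/+ in LSK, 0 for S3 against Ptpn11D61Y/+ in BM, 1 for S3 against Ptpn11D61Y/+ in spleen, 12 for Ptpn11D61Y/+ against MxCre in LSK, 0 for Ptpn11D61Y/+ against MxCre in BM, 1000 for Ptpn11D61Y/+ against MxCre in spleen, 7221 for BM against LSK in MxCre, 5301 for BM against LSK in S3, 179 for spleen against BM in MxCre, 11 for spleen against BM in S3 and 0 for the organ interaction.

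With RLE factors the number of genes was 7 for spleen against BM in S3. The direction reversed for Ace -0.053 (Ptpn11D61Y/+ against MxCre in BM) and Ccr2 -0.004 (spleen against BM in MxCre).

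With library sizes alone the number of genes was 1707 for Ptpn11D61Y/+ against MxCre in spleen, 64 for spleen against BM in MxCre and 1 for spleen against BM in S3. Signs turned for Nr4a1 0.097 and Ctss 0.34 (S3 against MxCre in BM), Ccr2 0.37, F13a1 0.33 and Lyz2 0.28 (S3 against MxCre in spleen), Ly6c2 0.10 (S3 against Ptpn11D61Y/+ in BM), Ace -0.021 (S3 against Ptpn11D61Y/+ in spleen), Lyz2 0.56 (Ptpn11D61Y/+ against MxCre in spleen), Nr4a1 -0.62 (BM against LSK in MxCre) and Ccr2 -0.040 (spleen against BM in MxCre).

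Without the filter the number of genes was 1 for S3 against MxCre in BM, 495 for S3 against MxCre in spleen, 11 for S3 against Ptpn11D61Y/+ in spleen, 113 for spleen against BM in MxCre and 17 for spleen against BM in S3.

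With DESeq2 the number of genes was 125 for S3 against MxCre in LSK, 976 for S3 against MxCre in BM, 3438 for S3 against MxCre in spleen, 255 for S3 against Ptpn11D61Y/+ in LSK, 253 for S3 against Ptpn11D61Y/+ in BM, 383 for S3 against Ptpn11D61Y/+ in spleen, 103 for Ptpn11D61Y/+ against MxCre in LSK, 1871 for Ptpn11D61Y/+ against MxCre in BM, 3401 for Ptpn11D61Y/+ against MxCre in spleen, 2169 for spleen against BM in MxCre, 554 for spleen against BM in S3 and 523 for the organ interaction. The direction then changed for Ace -0.054 (Ptpn11D61Y/+ against MxCre in BM) and Ccr2 -0.004 (spleen against BM in MxCre).

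With only the groups compared in the fit the number of genes was 4700 for S3 against MxCre in LSK, 0 for S3 against MxCre in spleen, 5223 for S3 against Ptpn11D61Y/+ in LSK, 0 for S3 against Ptpn11D61Y/+ in spleen, 2508 for Ptpn11D61Y/+ against MxCre in LSK, 272 for Ptpn11D61Y/+ against MxCre in spleen, 4727 for BM against LSK in MxCre, 0 for spleen against BM in MxCre and 0 for spleen against BM in S3. A change of sign was seen for Ly6c2 -0.046 (S3 against MxCre in spleen), Ly6c2 0.040 (S3 against Ptpn11D61Y/+ in BM), Ace -0.006 (Ptpn11D61Y/+ against MxCre in BM) and Ccr2 -0.017 (spleen against BM in MxCre).

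With the replicate number or animal as a block the number of genes was 1 for spleen against BM in MxCre, 1 for spleen against BM in S3, 7 for Ptpn11D61Y/+ against MxCre in LSK and 531 for Ptpn11D61Y/+ against MxCre in spleen. The direction reversed for F13a1 0.17 (spleen against BM in MxCre) and Ccr2 -0.26 and Fn1 -0.093 (Ptpn11D61Y/+ against MxCre in spleen). Between Ptpn11D61Y/+ and MxCre the block joined libraries of different mice that share only a number, so it is no pairing. Deviations of such libraries correlated at -0.0062 in LSK, 0.0264 in BM and 0.0554 in spleen.

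Without the 3 libraries with the fewest genes the number of genes was 1 for S3 against MxCre in LSK, 1562 for S3 against MxCre in spleen, 52 for S3 against Ptpn11D61Y/+ in LSK, 2 for S3 against Ptpn11D61Y/+ in BM, 41 for S3 against Ptpn11D61Y/+ in spleen, 20 for Ptpn11D61Y/+ against MxCre in LSK, 2081 for Ptpn11D61Y/+ against MxCre in spleen, 1367 for spleen against BM in MxCre, 103 for spleen against BM in S3 and 233 for the organ interaction. Signs turned for Nr4a1 1.67 and Ctss 1.64 (S3 against MxCre in BM), Ly6c2 -0.33 and Fn1 -0.012 (S3 against MxCre in spleen), Ly6c2 0.036 (S3 against Ptpn11D61Y/+ in BM), Ccr2 -0.10, Nr4a1 0.89, Fcgr4 0.10 and Ctss 0.38 (Ptpn11D61Y/+ against MxCre in BM), Fn1 -0.16 and Cx3cr1 0.63 (Ptpn11D61Y/+ against MxCre in spleen), Nr4a1 -1.33 (BM against LSK in MxCre), Ccr2 -0.54 (spleen against BM in MxCre), Lyz2 -0.16 (spleen against BM in S3) and Cx3cr1 0.69, Fcgr4 -1.42 and Ctss -1.14 (the organ interaction).

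Without the 3 libraries with reads of Xist and of Y genes the number of genes was 2 for S3 against MxCre in LSK, 1093 for S3 against MxCre in BM, 32 for S3 against Ptpn11D61Y/+ in BM, 0 for S3 against Ptpn11D61Y/+ in spleen, 2445 for Ptpn11D61Y/+ against MxCre in BM, 435 for spleen against BM in MxCre, 0 for spleen against BM in S3 and 106 for the organ interaction. The direction then changed for Lyz2 -0.26 (S3 against MxCre in BM), Ly6c2 -0.31 and Ccr2 0.14 (S3 against MxCre in spleen), Ace -0.21 (Ptpn11D61Y/+ against MxCre in BM), Fn1 -0.99 and F13a1 -0.74 (BM against LSK in MxCre) and Ly6c2 0.76, F13a1 1.86 and Ctss -0.38 (spleen against BM in MxCre).

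With S3 against the average of both controls, in place of MxCre alone, the number of genes was 15 in BM and 0 in spleen. Compared with S3 against MxCre, the sign then differed for Lyz2 (0.42) in LSK and for Lyz2 (-0.44) and Ctss (0.53) in BM.

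Leaving out 1 library at a time gave gene counts of 0 to 3 for S3 against MxCre in LSK, 2863 to 7002 for BM against LSK in MxCre, 1 to 1144 for spleen against BM in MxCre, 0 to 320 for the organ interaction, 267 to 860 for S3 against MxCre in spleen, 0 to 610 for Ptpn11D61Y/+ against MxCre in spleen, 0 to 2040 for S3 against MxCre in BM, 0 to 2852 for Ptpn11D61Y/+ against MxCre in BM, 0 to 42 for S3 against Ptpn11D61Y/+ in LSK, 0 to 8 for Ptpn11D61Y/+ against MxCre in LSK, 0 to 47 for S3 against Ptpn11D61Y/+ in spleen, 2954 to 7175 for BM against LSK in S3, 0 to 463 for spleen against BM in S3 and 0 to 2 for S3 against Ptpn11D61Y/+ in BM.

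The log2 differences of members that changed sign then ran as follows. In S3 against MxCre in BM the range was Nr4a1 -1.75 to 1.27, Ctss -0.81 to 1.52 and Lyz2 -0.38 to 0.66. In Ptpn11D61Y/+ against MxCre in BM the range was Ccr2 -0.100 to 1.93, Nr4a1 -1.65 to 0.89, Fcgr4 -1.85 to 0.10, Ctss -1.95 to 0.38 and Ace -0.30 to 0.52. In BM against LSK in MxCre the range was Nr4a1 -1.34 to 1.2, Fn1 -0.99 to 2.62 and F13a1 -0.74 to 2.07. In spleen against BM in MxCre the range was Ccr2 -0.62 to 1.41, F13a1 -0.94 to 1.86, Cx3cr1 -0.017 to 2.01, Ly6c2 -1.22 to 0.76 and Ctss -0.38 to 1.94. In the organ interaction the range was Fcgr4 -0.89 to 1.27, Ctss -0.90 to 1.42, Cx3cr1 -1.63 to 0.39 and Lyz2 -1.16 to 0.20. In S3 against MxCre in spleen the range was Ly6c2 -0.32 to 0.54, Fn1 -1.67 to 1.36, Cx3cr1 -0.44 to 1.58, Lyz2 -0.81 to 0.32, Ccr2 -0.34 to 0.13 and F13a1 -1.07 to 0.17. In Ptpn11D61Y/+ against MxCre in spleen the range was Fn1 -1.67 to 1.21, Cx3cr1 -1.39 to 0.63, Lyz2 -0.46 to 0.40, Ccr2 -1.69 to 1.19 and F13a1 -1.43 to 1.60. In Ptpn11D61Y/+ against MxCre in LSK the range was Ly6c2 -0.43 to 0.73 and F13a1 -0.12 to 0.55. In S3 against Ptpn11D61Y/+ in BM the range was Ly6c2 -0.44 to 0.15, Fn1 -0.81 to 0.56, F13a1 -1.28 to 0.004 and Nr4a1 -0.85 to 0.78. In S3 against Ptpn11D61Y/+ in spleen the range was Fn1 -2.03 to 2.19, Ace -0.35 to 0.93, Ccr2 -1.26 to 1.59, F13a1 -1.81 to 1.22, Nr4a1 -1.74 to 0.11 and Lyz2 -0.71 to 0.18. In spleen against BM in S3 the range was Lyz2 -0.49 to 0.87 and Cx3cr1 -0.031 to 0.87. In BM against LSK in S3 the range was Ace -0.43 to 1.44. Members that kept their sign in S3 against MxCre in BM also had wide ranges. These were Fcgr4 0.59 to 2.76, Ccr2 0.70 to 2.74, Ace 1.40 to 2.84, Cx3cr1 0.68 to 1.41, Fn1 1.83 to 5.45, F13a1 0.51 to 3.42 and Ly6c2 0.22 to 2.20.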
